A study of Mus musculus with 2 samples.

Results

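The genes described here are the Wnt ligands, their receptors, secreted antagonists and nuclear effectors measured in single cells of the mouse dentate gyrus, the hippocampal region in which granule neurons are born in adult life. They were chosen by gene name alone: columns named as a Wnt ligand, a Frizzled receptor, a secreted Frizzled-related protein (Sfrp) or a Dickkopf protein (Dkk), together with Lrp5, Lrp6, Axin2, Lef1, Tcf7, Tcf7l1 and Tcf7l2. Of the 17592 gene columns, 35 met this rule: 13 ligands, 12 receptors, 5 antagonists and 5 transcription factors or targets. All were annotated as protein coding on GRCm38.

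The study set 1 library labelled young, from C57BL/6 mice of 3 months, against 1 library labelled old, from C57BL/6 mice of 16 months. The labels name no treatment and no engineered allele at either age, and the number of mice behind a library is not given in the sources used here. Dentate gyri were dissected and digested with papain, cells that excluded propidium iodide were sorted as live, and transcripts were counted at their 3′ ends with 10x Genomics droplets. A unique molecular identifier (UMI) marks 1 captured transcript, and the levels below are summed UMIs of a gene per 10,000 UMIs of a group of cells.

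Wnt proteins are lipid-modified signals that act at short range. In the canonical branch a Wnt joins a Frizzled receptor to the co-receptor Lrp5 or Lrp6, β-catenin is spared from degradation, and transcription factors of the TCF/LEF family (Lef1, Tcf7, Tcf7l1, Tcf7l2) activate targets such as Axin2. In the brain this branch is known for building and keeping the blood-brain barrier of endothelial cells, for timing oligodendrocyte differentiation and for the birth of granule neurons from stem cells in the dentate gyrus.

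TCF/LEF proteins read short motifs such as CTTTGAA, with the variants CTTTGAT and then CTTTGTA, as well as CTTTGTT. These 4 motifs were searched on both strands in the RefSeq windows of 300 bases (250 before to 50 after an annotated start, GRCm38.p6). They differ from one another in the last 2 letters, so that 1 place can match only 1 of them. Windows were matched for 24 of the 35 genes, 32 windows in all. A motif lay in 6 of these (18.75%), against 16.9% of all 32851 windows. The window of Axin2, 1 of 2 windows of Tcf7 and 1 of 4 windows of Lef1 are shown because these genes were highest in vascular cells, and that of Wnt3 because it is the ligand of mature oligodendrocyte-like cells. Capitals mark a motif, on either strand.
Axin2, chr11:108920099-108920398, plus strand: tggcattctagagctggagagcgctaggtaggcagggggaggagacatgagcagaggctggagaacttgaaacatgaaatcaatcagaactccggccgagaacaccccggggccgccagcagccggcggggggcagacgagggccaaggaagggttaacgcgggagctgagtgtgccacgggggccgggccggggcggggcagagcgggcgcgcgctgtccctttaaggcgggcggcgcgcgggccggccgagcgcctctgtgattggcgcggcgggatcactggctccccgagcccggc
Tcf7, chr11:52282965-52283264, minus strand: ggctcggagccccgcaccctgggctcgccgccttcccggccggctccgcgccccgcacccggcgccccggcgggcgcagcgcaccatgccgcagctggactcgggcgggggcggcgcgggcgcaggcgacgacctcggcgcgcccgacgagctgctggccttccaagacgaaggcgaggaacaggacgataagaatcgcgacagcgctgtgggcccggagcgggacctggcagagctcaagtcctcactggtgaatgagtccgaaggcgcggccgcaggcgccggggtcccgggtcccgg
Lef1, downstream start, chr3:131156044-131156343, plus strand: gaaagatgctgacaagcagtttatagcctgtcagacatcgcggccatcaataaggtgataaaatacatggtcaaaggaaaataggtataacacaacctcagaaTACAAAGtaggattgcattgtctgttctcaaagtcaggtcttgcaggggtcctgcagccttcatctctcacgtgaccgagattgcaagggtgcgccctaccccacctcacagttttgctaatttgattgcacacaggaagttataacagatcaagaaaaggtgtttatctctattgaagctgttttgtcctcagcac
Wnt3, chr11:103773925-103774224, plus strand: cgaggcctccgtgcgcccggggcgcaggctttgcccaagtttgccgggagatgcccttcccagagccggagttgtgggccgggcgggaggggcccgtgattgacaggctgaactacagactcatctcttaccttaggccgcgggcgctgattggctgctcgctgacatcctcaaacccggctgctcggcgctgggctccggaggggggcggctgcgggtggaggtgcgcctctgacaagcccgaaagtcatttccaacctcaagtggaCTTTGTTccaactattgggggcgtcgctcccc
The Axin2 and Tcf7 windows shown held none of these letters, and their GC content was 70% and 76.3%, against a median of 52.7% over all windows. The other Tcf7 window held none either, at 64.3%. The Lef1 window at the downstream start held TACAAAG, 147 bases before the start, at a GC content of 43.7%. The other 3 Lef1 windows held none. The Wnt3 window held CTTTGTT from base 18 after the start. A match is a stretch of letters and was not tested for binding.

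Counted from the table, 2463 cells were young, with 16217559 UMIs and a median of 6663 per cell, and 1430 were old, with 7451506 UMIs and a median of 3856. Of their barcodes, 1401 were in both libraries, 98.0% of the old and 56.9% of the young. Cells with under 1% of UMIs from mitochondrial genes made up 54.5% of the young and 18.8% of the old library and were kept apart. All cells were clustered together without the Wnt genes, and the clusters were named after markers. Young rows gave 383 microglia-like, 278 astrocyte-like, 128 endothelial-like, 70 pericyte-like, 79 mature oligodendrocyte-like, 47 oligodendrocyte precursor-like, 57 neuroblast-like, 14 smooth muscle-like and 10 perivascular macrophage-like cells. Median depth ran from 2026.5 UMIs in astrocyte-like to 9609 in mature oligodendrocyte-like cells. The neuroblast-like class met 10 of its 12 markers and the other classes all of theirs, though the smaller astrocyte-like cluster met 10 of 12. No cluster took the name of mature granule neurons or interneurons, so the dentate gyrus is described here without its main neurons. Another 54 young cells stayed unnamed.

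Of the 1066 young and 1091 old cells of the 9 classes, 1033 shared a barcode and a class. In these the Wnt genes gave nearly the same readout in both tables. Of 1627 gene values above 0 in the young rows, 90.5% were above 0 in the old rows of the same barcode and 77.4% had the same number of UMIs. The brain cells were therefore counted as 1 sample, described from the young rows, and nothing below speaks of age. No p-value is given, since cells of 1 library are not replicates. Intervals are 95%, exact (Poisson for levels, Clopper-Pearson for shares, conditional binomial for ratios) and cover counting error only.

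A gene was compared between classes when the brain classes held at least 20 of its UMIs. It was called higher in a class when its level there was at least 4 times that of all other brain classes pooled. The call also had to rest on more than 3 UMIs. Microglia-like cells held 2985039 of the 6180521 UMIs of the brain classes, and so weighed heavily in the pool for every other class. A call therefore does not mean a level higher than in each other class. Of the 35 genes, 23 reached 20 UMIs: 6 ligands, 10 receptors, 2 antagonists and all 5 transcription factors or targets. In at least 1 class 19 of the 23 (82.6%) were called, where 40.5% of all 12227 genes compared were. Their median fold in the class of the highest ratio was 12.8, against 3.22 over all genes. The genes that passed the minimum include those that passed through the class in which they are high. The 4 with no call were Fzd7, Fzd8, Lrp5 and Tcf7l2.

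Astrocyte-like cells had 7 called genes (Dkk3, Fzd1, Fzd2, Fzd9, Tcf7l1, Wnt7a and Wnt7b), where 8.63% of all genes were called. Endothelial-like cells had 6 (Axin2, Fzd4, Fzd6, Lef1, Tcf7 and Wnt5a), where the background was 5.78%. Pericyte-like cells had 3 (Axin2, Fzd6 and Sfrp2; background 4.98%). Oligodendrocyte precursor-like cells had 2 (Fzd9 and Wnt4; 7.57%), as did smooth muscle-like cells (Tcf7l1 and Wnt5b; 3.91%). Mature oligodendrocyte-like cells had Wnt3 (4.9%), neuroblast-like cells Fzd3 (6.83%) and perivascular macrophage-like cells Lrp6 (1.64%). Microglia-like cells, the class with the most UMIs, had 0 called genes, where 6.78% of all genes were called.

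**Figure D1:**
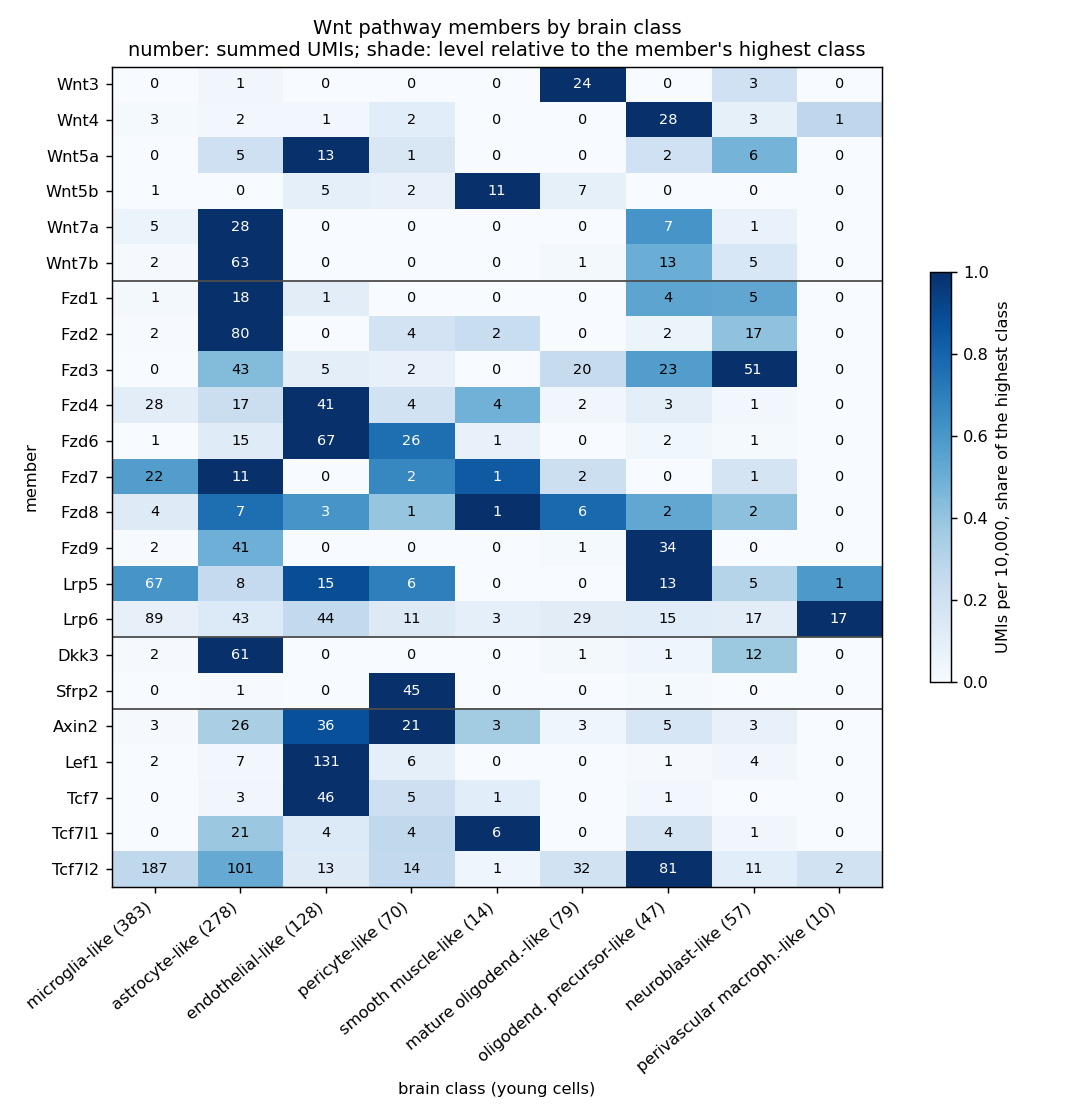
Wnt genes with at least 20 UMIs in brain classes (rows, grouped as ligands, receptors, antagonists and transcription factors or targets) by class of young cells (columns, number of cells in parentheses). Numbers are summed UMIs and the shade is the level as a share of that gene's highest class; Lef1 (131 UMIs) and Tcf7 (46) concentrate in endothelial-like, Sfrp2 (45) in pericyte-like and Wnt7b (63) in astrocyte-like cells, while the darkest fields of Fzd8 and the second of Fzd7 rest on 1 UMI in smooth muscle-like cells.

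Among the ligands, Wnt7a and Wnt7b, which signal from neural cells to brain endothelium, were found in astrocyte-like and oligodendrocyte precursor-like cells. Wnt7b (chr15:85535437-85582473) had 63 UMIs in 52 of 278 astrocyte-like cells, a level of 0.735 (0.565 to 0.941). It had 13 UMIs in 12 of 47 oligodendrocyte precursor-like cells, a level of 0.370 (0.197 to 0.632), and the ratio of these levels was 1.99 (1.08 to 3.94). Endothelial-like, pericyte-like and smooth muscle-like cells had no Wnt7b UMI, which allows up to 3 UMIs in each. A UMI of Wnt7b was seen in 18.7% of astrocyte-like cells (14.3 to 23.8; median depth 2026.5 UMIs) and in 0.522% of the much deeper microglia-like cells (2 of 383; median depth 7860), which is read as the background. Thinned to 1000 UMIs per cell, the astrocyte-like share was 9.05% and the oligodendrocyte precursor-like share 6.52% in place of 25.5%.

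Wnt7a followed the same order at 28 UMIs in astrocyte-like cells (level 0.327, 0.217 to 0.472) and 7 in oligodendrocyte precursor-like cells (0.199, 0.0801 to 0.410). These levels did not differ beyond counting error (ratio 1.64, 0.701 to 4.45). Astrocyte-like cells with and without Wnt7a held Wnt7b at about the same rate, 5 of 25 and 47 of 253 cells, and the first were deeper (median 3326 against 2010 UMIs).

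Wnt4 (chr4:137277489-137299726), a ligand known from kidney and gonad development, was highest in oligodendrocyte precursor-like cells. There it had 28 UMIs in 17 of 47 cells (level 0.797, 0.529 to 1.15), 7 of them in 1 cell, and the other brain classes together had 12 (38.7-fold, 19.1 to 83.5). In the 3′ end of Wnt4, 16.4% of the 31-base words also occur in other genes. How the authors' counting treated such reads is not given in the sources used here.

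Wnt3 (chr11:103774150-103817957), a ligand studied in adult hippocampal neurogenesis as a signal of astrocytes, was nearly confined here to mature oligodendrocyte-like cells. They had 24 of its 28 brain UMIs, in 21 of 79 cells (level 0.337, 0.216 to 0.501). Neuroblast-like cells had 3 UMIs and astrocyte-like cells 1, which gives 46.1-fold over the other classes (15.8 to 183). Mature oligodendrocyte-like cells were the deepest class: thinned to 1000 UMIs each, the share with a Wnt3 UMI was 2.60% in place of 26.6%. No microglia-like cell held one, which allows a share of up to 0.783%.

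Of the 2 Wnt5 ligands, which mostly act outside the β-catenin branch, Wnt5a was highest in endothelial-like cells with 13 UMIs in 10 cells (level 0.284, 0.151 to 0.486). Neuroblast-like cells had 6 (level 0.135), which did not differ beyond counting error (ratio 2.11, 0.748 to 6.77). Wnt5b had its highest level in smooth muscle-like cells, with 11 UMIs in 5 of 14 cells (4, 3, 2, 1 and 1; level 1.18, 0.591 to 2.12), and endothelial-like cells followed with 5 UMIs (0.109). This call rests on 5 cells.

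The other 7 ligands stayed under 20 UMIs in brain classes. Wnt1, Wnt3a, Wnt10b and Wnt11 had none, Wnt2b had 1 and Wnt9a 2. Wnt8b, a ligand of the embryonic hippocampal border, had 11 UMIs, all in 3 of the 278 astrocyte-like cells (8, 2 and 1). It is described although it is under the minimum, and was picked after its values were seen. Those 3 cells had a summed level of 40.6 (31.2 to 52.1) for 8 neural stem or radial glia markers, against 19.4 (18.4 to 20.3) in the other 275, and of 171 against 249 for 12 astrocyte markers. Their median depth was 6246 UMIs, against 2025, and the part of depth in this was not tested.

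Among the receptors, Fzd2 and Fzd1 had their highest level in astrocyte-like cells. Fzd2 (chr11:102604396-102608058) had 80 of its 107 brain UMIs there, in 50 cells (level 0.934, 0.740 to 1.16), and neuroblast-like cells came next with 17 UMIs (0.382; ratio 2.45, 1.44 to 4.40). Taken as a mean over cells, its astrocyte-like level was 0.716. Of the 2 clusters that make up the astrocyte-like class, the larger (254 cells) held all 80 Fzd2 UMIs and the smaller (24 cells) none, which allows a level of up to 0.446 (3 UMIs). Fzd1 had 18 UMIs in astrocyte-like cells (level 0.210, 0.125 to 0.332) and 11 elsewhere, and did not differ beyond counting error from oligodendrocyte precursor-like cells (4 UMIs, 0.114; ratio 1.85, 0.608 to 7.5).

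Fzd9 (chr5:135248938-135251230) was shared by both glial lineages with a tilt to precursors. It had 34 UMIs in 23 of 47 oligodendrocyte precursor-like cells (level 0.967, 0.670 to 1.35) and 41 in 33 of 278 astrocyte-like cells (0.479, 0.343 to 0.649), a ratio of 2.02 (1.24 to 3.26). The 79 mature oligodendrocyte-like cells had 1 UMI. The remaining classes had 2, both in microglia-like cells.

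Fzd4 and Fzd6 had their highest level in endothelial-like cells. Fzd4 (chr7:89404355-89413134), the receptor of norrin as well as of Wnt proteins, had 41 UMIs in 30 of 128 endothelial-like cells (level 0.896, 0.643 to 1.22). Smooth muscle-like cells followed with 4 UMIs (0.431, 0.117 to 1.10), which did not differ beyond counting error (ratio 2.08, 0.754 to 7.998). Its level was 0.198 (0.116 to 0.318) in astrocyte-like, 0.171 (0.0467 to 0.439) in pericyte-like and 0.0938 (0.0623 to 0.136) in microglia-like cells. Fzd6 (chr15:39006034-39038188) was high in both classes of the capillary wall. It had 67 UMIs in 54 endothelial-like cells (1.46, 1.14 to 1.86) and 26 in 20 of 70 pericyte-like cells (1.11, 0.727 to 1.63), which did not differ beyond counting error (ratio 1.31, 0.825 to 2.16). Microglia-like cells had 1 Fzd6 UMI.

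Fzd3 (chr14:65192449-65262463), a receptor of axon guidance and planar polarity, was highest in neuroblast-like cells with 51 UMIs in 26 of 57 cells (level 1.15, 0.853 to 1.51). Oligodendrocyte precursor-like cells followed at 0.654 (0.415 to 0.982; ratio 1.75, 1.05 to 3.00) and astrocyte-like cells at 0.502 (0.363 to 0.676). Microglia-like cells had 0 UMIs in 383 cells, which allows a share of up to 0.783% of cells with a UMI. Fzd7 and Fzd8 were thin and had no class that stood apart: Fzd7 had 22 UMIs in microglia-like (0.0737) and 11 in astrocyte-like cells (0.128), and Fzd8 had at most 7 UMIs in any class.

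Of the co-receptors, Lrp6 (chr6:134446476-134566965) had UMIs in all 9 classes and Lrp5 in 7. In the 8 classes other than perivascular macrophage-like cells its level lay between 0.298 (microglia-like, 89 UMIs) and 0.962 (endothelial-like, 44 UMIs). The 10 perivascular macrophage-like cells had 17 UMIs in 5 cells (6, 5, 4, 1 and 1), a level of 3.71 (2.16 to 5.94). They were 3.86-fold over endothelial-like cells (2.07 to 6.89), and none of them held a Frizzled UMI, which allows up to 3 UMIs. Lrp5 ran from 0.370 in oligodendrocyte precursor-like (13 UMIs) and 0.328 in endothelial-like (15 UMIs) to 0.0934 in astrocyte-like cells (8 UMIs) among the classes that held it, and the highest pair did not differ beyond counting error (ratio 1.13, 0.494 to 2.54). Mature oligodendrocyte-like cells, the deepest class, had no Lrp5 UMI in 79 cells (level up to 0.0421, from 3 UMIs) and none in the old rows, and smooth muscle-like cells had none in 14 cells of the young rows.

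Among the antagonists, Sfrp2 (chr3:83766321-83774316), a secreted protein with a Frizzled-like domain that binds Wnt, had the highest fold of the 23 genes compared. Pericyte-like cells held 45 of its 47 brain UMIs, in 20 of 70 cells (level 1.93, 1.41 to 2.58), and the cells of the other classes held 2 (573-fold, 150 to 4876). At Leiden resolution 0.5, where fewer classes were told apart, its pericyte-like level was 1.38. The pericyte-like cells with Sfrp2 carried the markers of pericytes: the summed level of 10 pericyte markers was 459 in them and 361 in the 50 without. Fibroblast markers were far below these sums in both (5.78 and 5.02 for 10 genes). So were 12 mesenchymal markers used to name low-mitochondrial clusters (7.35 with Sfrp2 and 5.47 without).

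Dkk3 (chr7:112116017-112159057), the divergent Dickkopf, had 61 of its 77 UMIs in astrocyte-like cells (48 cells; level 0.712, 0.545 to 0.915) and 12 in neuroblast-like cells (0.270, 0.139 to 0.471; ratio 2.64, 1.41 to 5.39). Endothelial-like, pericyte-like and smooth muscle-like cells had none. Sfrp1 had 17, Dkk2 8 and Sfrp4 5 brain UMIs and were not compared between classes.

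Lef1 and Tcf7, the TCF/LEF proteins that are themselves switched on by the canonical branch, were endothelial. Lef1 (chr3:131110471-131224356) had 131 of its 151 brain UMIs in endothelial-like cells, in 70 of 128 cells. Its level there was 2.86 (2.39 to 3.40), pericyte-like cells followed at 0.257 (0.0943 to 0.559), and the fold over all other classes was 81.9 (51.0 to 139). A Lef1 UMI was seen in 54.7% of endothelial-like cells (45.7 to 63.5; median depth 3245 UMIs; 30.3% once thinned to 1000 UMIs) and in 0.522% of microglia-like cells. Tcf7 (chr11:52252371-52283014) had 46 UMIs in 37 endothelial-like cells (level 1.01, 0.736 to 1.34) and 10 elsewhere (57.5-fold, 28.6 to 128). Pericyte-like cells followed at 0.214 (ratio 4.70, 1.87 to 15.1). Gm26551 overlaps the Tcf7 3′ end on the same strand and is a column of its own. How the authors' counting treated reads of the overlap is not given in the sources used here.

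Axin2 (chr11:108920349-108950783), the scaffold and target that is the usual readout of canonical activity, was highest in pericyte-like and endothelial-like cells. Pericyte-like cells had 21 UMIs in 18 of 70 cells (level 0.899, 0.557 to 1.38) and endothelial-like cells 36 in 27 of 128 cells (0.787, 0.551 to 1.09), which did not differ beyond counting error (ratio 1.14, 0.634 to 2.01). Smooth muscle-like cells followed with 3 UMIs in 3 of 14 cells (0.323, 0.0666 to 0.944) and astrocyte-like cells with 26 (0.304, 0.198 to 0.445). The neuronal and oligodendrocyte classes had 3 to 5 UMIs each, at levels of 0.0421 to 0.142, and microglia-like cells 3 (0.0101). At resolution 0.5 endothelial-like cells took the highest place.

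Within the endothelial-like class, cells with and without a Lef1 UMI both held the other Wnt genes. A Tcf7 UMI was seen in 22 of the 70 cells with Lef1 (31.4%) and in 15 of the 58 without (25.9%), and an Axin2 UMI in 22.9% and 19.0%. For Fzd6 it was 36 of 70 and 18 of 58 cells. The cells with Lef1 were deeper (median 3880 against 2206 UMIs), and the part of depth in these shares was not tested.

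Tcf7l1, mostly a repressor, had 21 UMIs in astrocyte-like cells (level 0.245, 0.152 to 0.375) and 6 in 4 smooth muscle-like cells (0.646, 0.237 to 1.41), a ratio of 2.64 with an interval of 0.870 to 6.75. Tcf7l2 (chr19:55741820-55933654), the factor known from the step between oligodendrocyte precursor and myelinating cell, was the most widely seen of the 5. It had 187 UMIs in microglia-like cells (0.627, 0.540 to 0.723), 101 in astrocyte-like cells (1.18, 0.960 to 1.43) and 81 in oligodendrocyte precursor-like cells (2.30, 1.83 to 2.86). Its level in endothelial-like cells, where Lef1 and Tcf7 were high, was 0.284 (0.151 to 0.486).

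The precursor value rested on 2 cells. They held 25 and 24 Tcf7l2 UMIs, while no other of the 47 cells held more than 3. Without them the precursor level was 0.955 (0.653 to 1.35). This interval overlaps that of astrocyte-like cells (0.960 to 1.43), so no order is read from it. The 2 cells had no UMI of Pdgfra, the precursor's growth factor receptor, which all 45 other cells had. They held 41 UMIs of Enpp6 and 43 of Bcas1, genes of newly forming oligodendrocytes (for Enpp6 the other 45 cells held 1 UMI in all), and 199 of Mbp, a myelin gene, but none of Mog, a late one. Fzd9 and Wnt4, found in the other cells of this class, had no UMI in them. Both were called doublets, as were 7 of the other 45 cells. The 2 cells were picked after their values were seen.

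**Figure D2:**
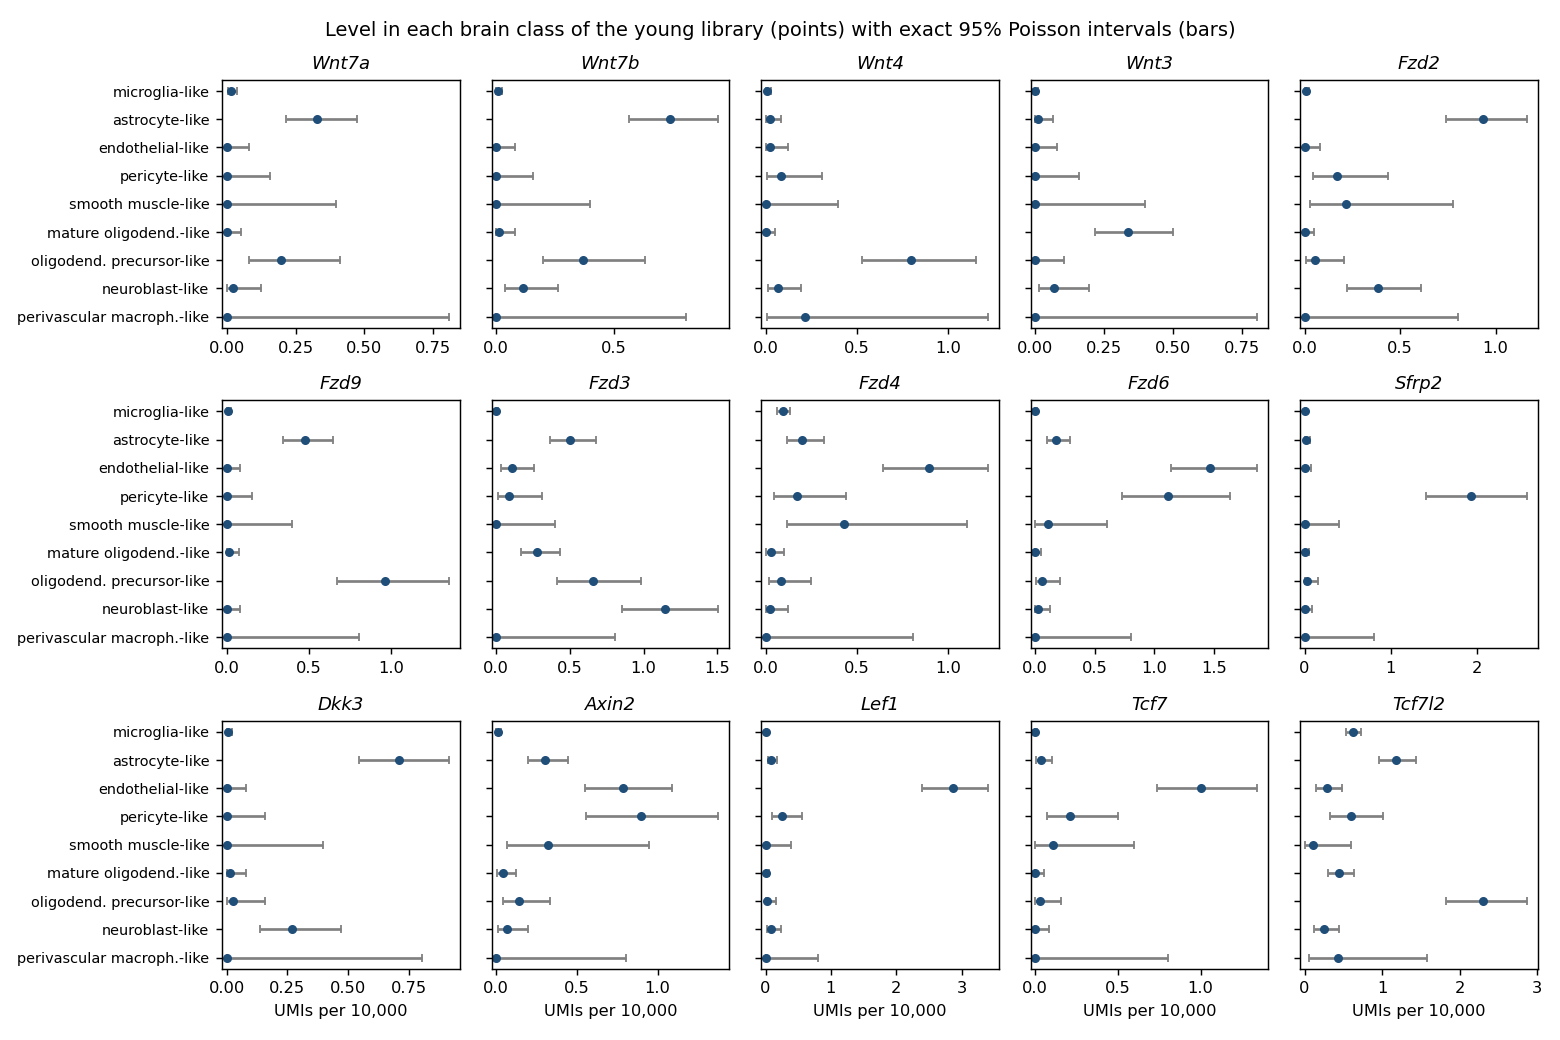
Level of 15 Wnt genes (UMIs per 10,000 of the class, x axis, its range differs between panels) in the 9 brain classes of the young library (y axis), as points with exact 95% Poisson intervals. Wnt7a, Wnt7b, Fzd2 and Dkk3 peak in astrocyte-like cells, Lef1 (2.86) and Tcf7 (1.01) in endothelial-like cells, Sfrp2 (1.93) in pericyte-like cells and Fzd3 (1.15) in neuroblast-like cells; the 14 smooth muscle-like and 10 perivascular macrophage-like cells have wide intervals.

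Summed by role, oligodendrocyte precursor-like and astrocyte-like cells were high for both ligands and Frizzled genes, and endothelial-like cells for Frizzled genes. All 13 ligands together had a level of 1.45 (1.08 to 1.91) in oligodendrocyte precursor-like and 1.30 (1.07 to 1.56) in astrocyte-like cells. Smooth muscle-like cells had 1.18 (0.591 to 2.12) from 11 UMIs, an interval that holds both. Mature oligodendrocyte-like cells had 0.449 (0.307 to 0.634) and endothelial-like cells 0.437 (0.267 to 0.675). The 10 Frizzled genes had 2.71 (2.37 to 3.08) in astrocyte-like, 2.56 (2.12 to 3.07) in endothelial-like, 2.02 (1.58 to 2.55) in oligodendrocyte precursor-like, 1.76 (1.26 to 2.38) in pericyte-like and 1.75 (1.39 to 2.19) in neuroblast-like cells. Antagonists had 2.18 (1.63 to 2.87) in pericyte-like, 0.747 (0.575 to 0.954) in astrocyte-like, 0.517 (0.328 to 0.775) in neuroblast-like and 0.0656 (0.0135 to 0.192) in endothelial-like cells. These sums rest mostly on 1 gene: Sfrp2 gave 45 of the 51 UMIs in pericyte-like cells. Dkk3 gave 61 of the 64 in astrocyte-like and 12 of the 23 in neuroblast-like cells.

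Among the classes with any UMI of the role, microglia-like cells were at the foot of the order for ligands (0.0369, 0.0184 to 0.0659), Frizzled genes (0.228, 0.177 to 0.289) and antagonists (3 UMIs, 0.0101, 0.00207 to 0.0294). Of their 68 Frizzled UMIs, 28 were Fzd4 and 22 Fzd7. Their summed Lrp5 and Lrp6 level, 0.523 (0.444 to 0.611), lay within the interval of astrocyte-like cells (0.443 to 0.783). A Frizzled UMI together with an Lrp5 or Lrp6 UMI was seen in 20 of 383 microglia-like cells (5.22%), 26 of 128 endothelial-like cells (20.3%) and 15 of 47 oligodendrocyte precursor-like cells (31.9%). After thinning to 1000 UMIs these shares were 0%, 4.10% and 0%, too few cells for an order.

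**Figure D3:**
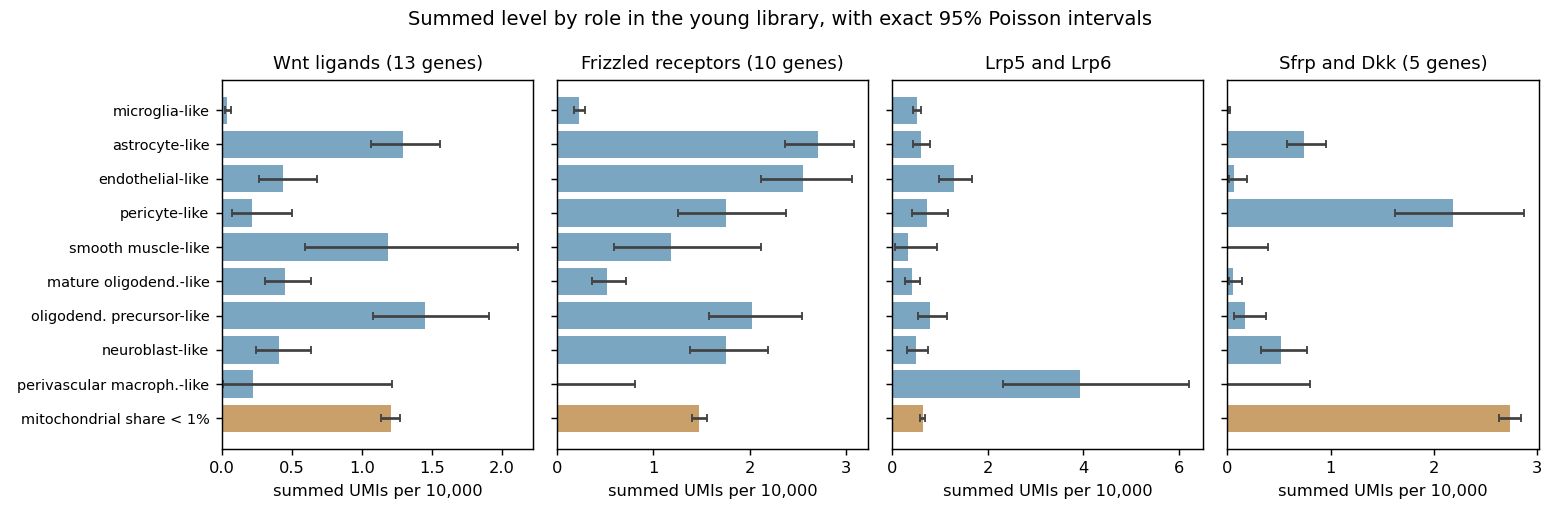
Summed UMIs per 10,000 (bars, from 0) of the Wnt ligands, Frizzled receptors, Lrp5 with Lrp6, and Sfrp with Dkk genes in each brain class (blue) and in cells with a mitochondrial share below 1% (brown) of the young library, with exact 95% Poisson intervals. Ligand levels are highest in oligodendrocyte precursor-like (1.45) and astrocyte-like (1.30) cells, and antagonist levels in low-mitochondrial (2.74) and pericyte-like (2.18) cells.

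The neuroblast-like class held a sub-cluster of 12 cells led by Snhg11, Meg3, Reln and Ndnf. This sub-cluster met 6 of the 12 neuroblast markers and stayed unnamed. It held 4 of the class's 5 Wnt7b UMIs, 5 of its 12 Dkk3 UMIs and 10 of its 51 Fzd3 UMIs. Sfrp1, with 10 UMIs in the class, had none there. The sub-clusters were made after the data were seen, and these UMIs are too few for an order.

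Other genes of the pathway were read from 8 lists, 78 columns in all, of which 58 had at least 20 brain UMIs and 33 (56.9%) were called in some class, against the 40.5% of all genes. A gene on more than 1 list is counted once in these totals. The extracellular and membrane lists were mostly called: 4 of 5 secretion and processing genes, all 3 R-spondin receptors and ligases compared, all 9 genes of non-canonical receptors and polarity, all 4 norrin and endothelial co-receptor genes and both other antagonists compared. Of the cytoplasmic core, shared by all cells, 2 of 16 were called, Ctnnb1 and Apc2, and of nuclear cofactors 2 of 12, Pygo1 and Tle2. All 10 other targets compared were called, in differing classes. Here too, the genes that passed the minimum include those that passed through the class in which they are high. All 16 core columns passed it, but only 2 of the 10 columns of other antagonists, so these shares are not compared between lists.

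Partners of Fzd4 and of the Wnt7 ligands were called in vascular and astrocyte-like classes. Ndp, which encodes norrin, the Fzd4 ligand, was highest in astrocyte-like cells (55 UMIs, level 0.642), and Tspan12, its co-receptor, in smooth muscle-like cells (14 UMIs, level 1.51), with a call in astrocyte-like cells as well. Adgra2 and Reck, the endothelial co-receptors of Wnt7a and Wnt7b, were highest in endothelial-like cells (0.852 and 0.481) and were also called in pericyte-like cells, and Adgra2 in smooth muscle-like cells. Ctnnb1, which encodes β-catenin, was highest in endothelial-like cells (363 UMIs, level 7.93), and Apc2 in neuroblast-like cells (level 1.08).

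Of the targets with the highest levels, Ccnd1, a cell cycle gene, had 6.15 in oligodendrocyte precursor-like cells and Sox17, an endothelial transcription factor, 5.64 in endothelial-like cells, where 258 of its 261 UMIs lay. Among processing genes, Sulf2, which trims heparan sulfate, had 4.18 in oligodendrocyte precursor-like cells, and Wls, which carries Wnt to the cell surface, 2.96 in pericyte-like cells. Among non-canonical receptors, Ryk had 2.96 in pericyte-like and Celsr2 1.51 in neuroblast-like cells. Lgr4, an R-spondin receptor, had 2.11 in astrocyte-like cells and Znrf3, a ligase that removes Frizzled, 0.537 in the same class.

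The remaining lists gave Draxin, an antagonist and axon guidance protein, at 1.26 in neuroblast-like cells with 56 of its 58 UMIs, and Apcdd1, a membrane antagonist, at 0.284 in endothelial-like cells with 13 of its 16 UMIs, too few to be compared. Gsk3b, a kinase of the β-catenin destruction complex, had 5.64 in neuroblast-like cells without a call, and of the cofactors Tle4 had 1.68 in astrocyte-like and Crebbp 1.48 in neuroblast-like cells, also without a call. Notum, an enzyme that removes the lipid from Wnt, had 52 of its 57 UMIs in endothelial-like cells (level 1.14, 0.849 to 1.49). Ndp, Reck, Apc2, Pygo1, Tle2 and Notum were named after their values were seen.

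The 1343 young cells with a mitochondrial share under 1% were set against the brain classes as a whole. Of the 35 genes, 29 could be compared, with at least 20 UMIs over both groups. Higher by at least 4-fold were 6 of them, Sfrp1, Sfrp2, Wnt1, Wnt4, Wnt10b and Fzd10, where 7.04% of all 13162 genes were. Lower by at least 4-fold were 8, Fzd9, Wnt7a, Wnt7b, Dkk3, Tcf7, Fzd4, Fzd5 and Fzd6, where 51.7% of all genes were. The median ratio of low-mitochondrial to brain classes was 1.26 over the 29 and 0.227 over all genes. The genes that passed the minimum of this comparison include those that passed through the group in which they are high. Of the 1343 cells, 33 lay in clusters of brain cells.

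Sfrp2 had 1877 UMIs in 617 of these cells (level 1.91) and 47 in brain classes (25.1-fold, 18.8 to 34.3). Sfrp1 had 795 against 17 (29.4-fold, 18.3 to 50.8) and Wnt4 760 against 40 (11.96-fold, 8.70 to 16.9), with the limit on the Wnt4 3′ end named above. Wnt1, a ligand of the embryonic midbrain and dorsal neural tube, had 133 UMIs in 66 cells and none in the 1066 brain cells, and was at least 27.9-fold higher with 3 UMIs as the floor over all brain classes. Wnt10b, with 21 against 0, was at least 4.41-fold higher. Fzd10 had 27 against 2 (8.50-fold, 2.14 to 73.8). Fzd3 (895 UMIs, 3.91-fold, 3.28 to 4.70) and Wnt3 (158 UMIs, 3.55-fold, 2.37 to 5.52) fell just short of 4-fold.

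Of the 7 genes called in astrocyte-like cells, 4 were at least 4-fold lower in low-mitochondrial cells, where 51.7% of all genes were. This count is near that share, and the 7 were picked for a high level in a brain class. The low-mitochondrial cells held 9817725 UMIs in all. Fzd9 had 1 UMI against 78 (124-fold lower, 21.6 to 4956) and Wnt7a 1 against 41 (65.1-fold, 11.1 to 2634). Wnt7b had 3 against 84 (44.5-fold, 14.7 to 220.0) and Dkk3 7 against 77 (17.5-fold, 8.09 to 44.9). The other 3, Fzd1, Fzd2 and Tcf7l1, had 26, 331 and 170 UMIs. Of the vascular set, Tcf7 had 8 against 56 (11.1-fold lower), Fzd4 19 against 100 (8.36-fold) and Fzd6 26 against 113 (6.90-fold). Fzd5, under the minimum for naming, had 3 against 17.

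Lef1 and Axin2 were present in both. Lef1 had 354 UMIs in 274 low-mitochondrial cells (level 0.361 against 0.244; ratio 1.48, 1.22 to 1.80) and Axin2 361 in 271 cells (0.368 against 0.162; 2.27, 1.82 to 2.86). Tcf7l2 had 569 UMIs (0.580 against 0.715), Lrp6 538 (0.548 against 0.434), Fzd2 331 (0.337 against 0.173) and Tcf7l1 170 (0.173 against 0.0647), all within 3-fold of the brain classes.

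Low-mitochondrial clusters differed among themselves. Cluster 0, of 651 cells led by ribosomal pseudogenes, held 585 of the 760 Wnt4 UMIs (level 1.19, 1.10 to 1.30) and 96 of the 133 Wnt1 UMIs. Sfrp2 had its highest level, 3.88 (3.41 to 4.39), in cluster 9, of 60 cells led by mitosis genes, and 3.43 (3.14 to 3.74) in cluster 10, of 184 cells. In cluster 13, of 96 cells led by Twist1 and other mesenchymal genes, Sfrp1 had 372 UMIs in 78 cells (level 4.71, 4.24 to 5.21) and Lef1 84 UMIs in 52 cells (1.06, 0.848 to 1.32), while Wnt4 had 3 and Fzd3 11.

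Clusters 14 and 15, led by neuronal genes (Stmn2, with Sst leading the second), had Fzd3 at 1.19 (0.952 to 1.46) and 1.14 (0.916 to 1.39), close to the neuroblast-like 1.15. Their Sfrp1 level was 1.04 and 1.05. Fzd2 was low in both, at 0.0266 and 0.134, against 0.644 (0.462 to 0.873) in cluster 9. These cells have no labelled origin, and their identity was not tested.

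**Figure D4:**
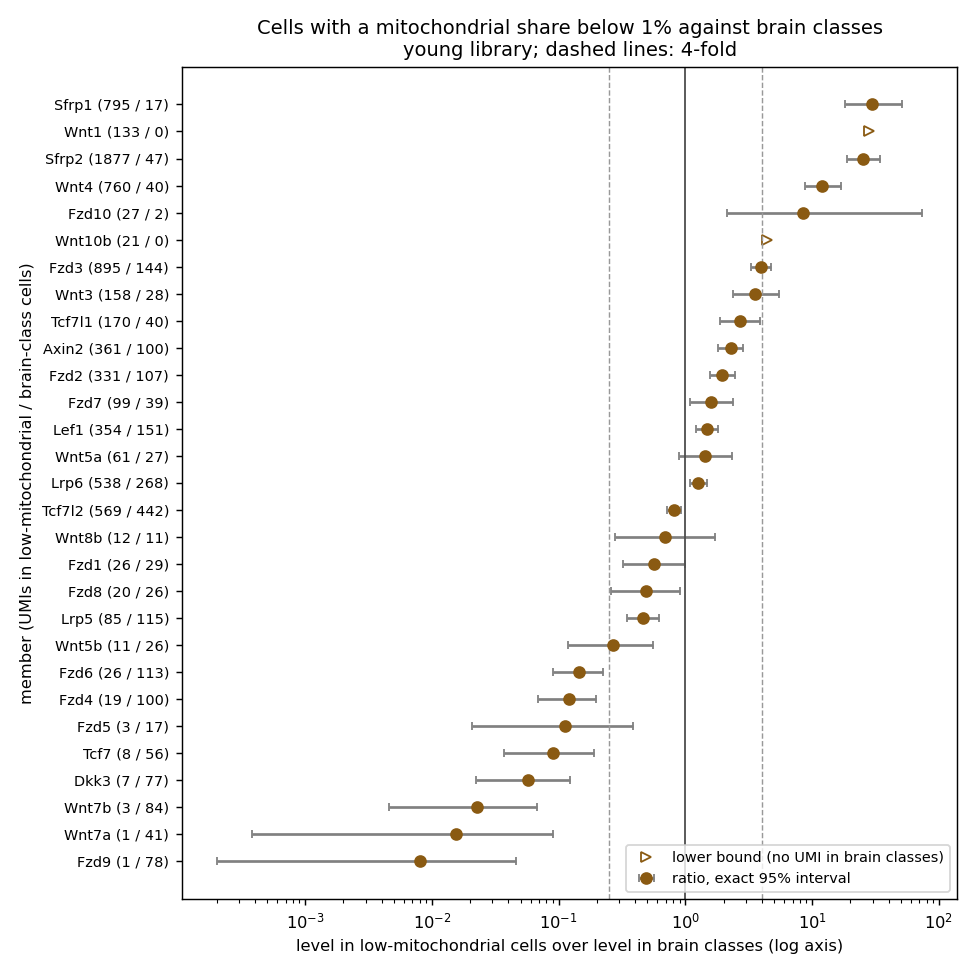
Ratio of the level in cells with a mitochondrial share below 1% to the level in brain classes of the young library (x axis, log scale) for the 29 Wnt genes with at least 20 UMIs (y axis, UMIs of either group in parentheses), with exact 95% intervals; open triangles are lower bounds. Sfrp1, Wnt1, Sfrp2, Wnt4, Fzd10 and Wnt10b lie above the 4-fold line, and 8 genes from Fzd6 down to Fzd9 lie below the other.

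The old rows, a second readout of the same brain cells, gave similar levels. For Lef1 in endothelial-like cells they held 141 UMIs (level 2.77, 2.33 to 3.27, against 2.86), for Sfrp2 in pericyte-like cells 47 (1.94 against 1.93), for Wnt7b in astrocyte-like cells 72 (0.758 against 0.735) and for Lrp6 in perivascular macrophage-like cells 24 (4.54 against 3.71). Over the 52 pairs of a gene and a class with at least 20 UMIs in both tables together, the ratio of old to young levels ran from 0.573 to 2.03 with a median of 1.02. All 52 intervals held 1. These intervals treat the 2 counts as independent, which counts from the same cells are not. They are therefore too wide to test whether the levels are equal. One pair was at least 2-fold apart, Lrp5 in astrocyte-like cells, with 18 UMIs in old and 8 in young rows (2.03-fold, 0.840 to 5.39). In that class 0.662% of all genes were 2-fold apart.

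No other class had a Wnt gene 2-fold apart. The share of all genes 2-fold apart was 1.15% in microglia-like, 0.281% in endothelial-like, 0.495% in pericyte-like, 0.252% in smooth muscle-like, 0.416% in mature oligodendrocyte-like, 0.467% in oligodendrocyte precursor-like, 0.602% in neuroblast-like and 0.873% in perivascular macrophage-like cells. Nearly all of these cells share their barcode, so the values compare 2 readouts of 1 set of cells.

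**Figure D5:**
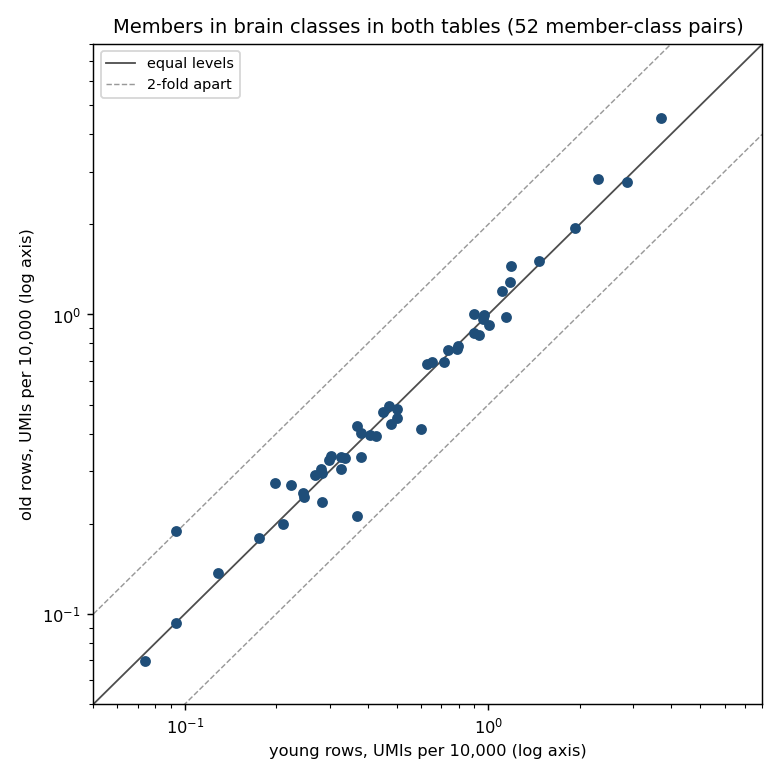
Level of the Wnt genes in old rows (y axis, UMIs per 10,000, log scale) against young rows (x axis, same unit, log scale), 1 point for each of the 52 pairs of a gene and a brain class. Points lie along the line of equal levels and 1 of them, Lrp5 in astrocyte-like cells, reaches the 2-fold line; the rows are largely the same cells and say nothing of age.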

How the data were processed

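Single-cell expression was taken from the authors' deposited table of 3893 cells and 17592 genes. Before depositing it, the authors scaled each cell to 10,000 UMIs and took the natural log of the value plus 1. This unit was worked out from the numbers themselves and is not named in the labels. UMIs came back as whole numbers (tolerance 0.01) for 100% of values above 0 and were used for all sums. Per the submitters' processing notes, Cell Ranger 5.0.0 and mm10 were used. For the annotation, the strand setting and the cell filter, the choice is not given in the sources used here. Depth was 16217559 UMIs in the young and 7451506 in the old library, 1 library per age.

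With the Wnt genes and pathway lists left out, cells of both libraries were clustered in scanpy 1.11.5 (2000 variable genes, 30 principal components, 15 neighbours, Leiden at resolution 1). A cluster was named from its markers when at least 3 were in 25% of its cells and 4-fold over the others, with a check of its 10 leading genes. Cells with a mitochondrial share under 1% were set apart one by one. Scrublet called 37 young and 23 old cells as doublets, which were kept. Ratios against 0 used a floor of 3 UMIs. Genes were given with values when they had at least 20 UMIs in the brain classes or in the low-mitochondrial cells of the young rows, and of each pathway list the 2 with the highest level in a class. Gene coordinates are from GENCODE M21 (GRCm38), and the last 500 bases of transcripts were compared by words of 31 bases.

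The genes, lists and comparisons were chosen with earlier results of these data known. The fold rule was tested on simulated counts. Alternatives changed 1 choice at a time, among them the library, resolution, fold, minimum UMIs and doublets, and 1 was added after seeing the data.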

Additional observations from a re-analysis of the deposited data

Results flagged for a closer look

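The 54 young cells that took no class name, 5 of them in low-mitochondrial clusters, lie outside the comparisons. Of the Wnt genes, 3 had more UMIs in these 54 cells than the 3 that a count of 0 allows: Tcf7l2 with 9, Axin2 with 6 and Fzd2 with 4. The leading genes of the cluster that holds most of these cells were Ttr, hemoglobin genes and S100a8. No explanation of these values was tested.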

How the results depend on the processing

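Of the 23 levels, those that could be computed stayed within their counting interval in the old rows, among shared barcodes of the same class, with low-mitochondrial cells set apart by cluster, at resolution 2, with Wnt genes kept for clustering and without the smooth muscle-like and perivascular macrophage-like classes (the alternative chosen after seeing the data). Outside it were Tcf7l2 in oligodendrocyte precursor-like cells without doublets (1.01) and with the young library clustered alone (0.962), Sfrp2 in pericyte-like cells at resolution 0.5 (1.38) and Fzd2 as a mean over cells (0.716). The class of the highest level changed for Fzd7 and Lrp5 in the old rows, Lrp5 among shared barcodes, Tcf7l2 in the 2 settings above, Axin2 at resolution 0.5 and Fzd8 as a mean over cells. Thinning to 1000 UMIs lowered 21 of 23 shares of cells past their interval, by its own construction. The old rows are largely the same cells and give no independent check.

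Counts of called genes moved by over 1.5 times as follows; the cause was not tested where the setting itself does not give it. In the old rows there were 2 in mature oligodendrocyte-like (against 1), 4 in oligodendrocyte precursor-like (against 2) and 2 in neuroblast-like cells (against 1), and 3 higher and 3 lower in the 269 low-mitochondrial cells (against 6 and 8). At resolution 0.5, with 7 classes named, pericyte-like cells had 5 (against 3). With at least 50 UMIs fewer genes were compared: 4 were called in astrocyte-like (against 7), 0 in smooth muscle-like (against 2), 0 in mature oligodendrocyte-like (against 1) and 1 in oligodendrocyte precursor-like cells (against 2), and 11 in any class (against 19). With no filter there were 2 in mature oligodendrocyte-like and 2 in neuroblast-like cells (against 1 each). With a fold of 2 there were 11 in astrocyte-like (against 7), 5 in pericyte-like (against 3), 3 in mature oligodendrocyte-like (against 1), 8 in oligodendrocyte precursor-like (against 2) and 5 in neuroblast-like cells (against 1), and 10 higher in low-mitochondrial cells (against 6). The 1 pair apart between old and young rows became 0 among shared barcodes of the same class, with low-mitochondrial cells set apart by cluster, with Wnt genes kept for clustering, with at least 50 UMIs and with a fold of 4, and 10 with no filter. Old rows alone and the young library alone give no such count.

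No paired analysis was possible because each age is 1 library and no test was made. The smooth muscle-like and perivascular macrophage-like values rest on 14 and 10 cells, and a count of 0 in them allows a level above that of most other classes.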
